A study of Mus musculus with 12 samples.

Results

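A group of 39 genes of cholesterol and lipid synthesis was followed across differentiated neurospheres of wild-type embryos (WT) and of APPswe/PS1dE9 embryos that were untreated (APP_WT) or given bradykinin (BK_APP) or HOE-140 (HOE_APP). Its rule uses pathway membership and no measured value, but its members were chosen with earlier results of these data known. It holds 20 enzymes of sterol synthesis, 8 enzymes of fatty acid synthesis and desaturation, 6 genes of SREBP regulation and 5 genes of the liver X receptors (LXR), among 20887 genes with a named probe on the array. Probes were assigned through the RefSeq accession that identifies them. All 39 genes were represented, by 55 probes of which 51 counted as expressed, meaning that 1 condition of some comparison exceeded the background clearly on 3 or more of its 4 arrays, as was so for 29361 of 55681 probes. Where a gene had several expressed probes, the one with the highest mean intensity stands for it.

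Neural progenitor cells from the telencephalon of C57BL/6 embryos at embryonic day 13 grew as neurospheres, which are free-floating clusters, for 5 days by the sample labels. They were then plated and differentiated without growth factors, and RNA was taken at day 7. APPswe/PS1dE9 mice carry transgenes with familial Alzheimer's disease mutations, 1 for a human-mouse hybrid of APP and 1 for human presenilin 1, whose expression is aimed at brain neurons. All BK_APP and HOE_APP cells carry these transgenes as well, so that each treatment was compared within the mutant genotype only. Bradykinin, the agonist of the kinin B2 receptor, or HOE-140, its antagonist, was added 3 times (days 0, 3 and 6 of differentiation) at 1 µM. There were 3 comparisons of 4 2-color Agilent arrays each with the dyes swapped, 1 of the genotypes (APP_WT over WT) and 1 of each peptide within the mutant (BK_APP or HOE_APP over APP_WT), and the replicates are described as independent biological ones. On arrays 1 and 2 of APP_WT versus WT the mutant sample was in Cy3 and on arrays 3 and 4 in Cy5, whereas the treated sample was in Cy5 on arrays 1 and 2 and in Cy3 on arrays 3 and 4 of the treatments. For HOE_APP the labels of the 2 channels name the same treatment, so its direction, taken from the first channel, the titles and the swap, is likely only.

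Between 51.2% and 60.3% of spots were well above background on an array, and the 39 representative probes were so in both channels of all 12 arrays. Ratios of arrays with the same dye orientation correlated within each comparison at r between 0.244 and 0.608 over the expressed probes. Arrays of opposite orientation correlated positively in APP_WT versus WT (r of 0.243 to 0.463) but negatively in BK_APP (−0.323 to −0.114) and HOE_APP (−0.321 to −0.191), after all ratios were turned to the same direction. The App probe was higher by 0.12 ± 0.0439 on the log2 scale (SE, n = 4) in APP_WT, which did not pass the test (limma adjusted p = 0.0925), and whether it detects the transgene is not given in the sources used here. The Prnp probe was higher by 0.75 ± 0.151 and above 0 on all 4 arrays (limma adjusted p = 0.00581). Its ratios were uneven, at 0.59, 0.59, 1.57 and 0.25 on arrays 1 to 4. Of the 15 microglial markers, 13 were expressed and 12 of these rose in APP_WT. Their summed level ranged from 14352 to 18493 intensity units in APP_WT and from 9835 to 12002 in WT. This sum weights the brightest markers most, and the median log2 fold change of the 13 was 1.39. Among the expressed markers, Laptm5 was well above background on 0 and Tyrobp, Ctss and Tmem119 on 1 of 4 WT arrays. Of 9 astrocyte markers 7 rose as well. More cells of a type and more RNA per cell cannot be told apart in these bulk samples.

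Cholesterol is made from acetyl-CoA through mevalonate, isoprenoids and squalene, and the later enzymes turn lanosterol into cholesterol. When the sterol content of the endoplasmic reticulum is low, SCAP escorts the SREBP transcription factors to the Golgi, where they are cleaved, and they then activate genes of sterol and fatty acid synthesis. INSIG proteins hold the complex back when sterols are plentiful. Oxysterols activate LXR, which raises cholesterol export and the SREBP1c form. In the brain cholesterol is made locally, mostly by glial cells, since lipoproteins do not cross the blood-brain barrier.

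A window of 250 bases before to 50 bases after the annotated start site was available from RefSeq (GRCm38.p6) for 31 of the 39 genes, which had 40 windows, since some genes have several starts. The motifs described next were searched on both strands. The letters TCACNCCAC, a form of the sterol regulatory element, stood in the windows of 1 of 31 genes, Hmgcs1, and in 1.44% of all 27025 genes with a window. The letters CCAAT, which nuclear factor Y can bind, were present for 16 of 17 sterol enzymes (94.1%), 4 of 5 genes of SREBP regulation, 2 of 5 fatty acid enzymes and 1 of 4 LXR genes, against 41.1% of all genes. The Sp1 box GGGCGG was present for 15 of 17 sterol enzymes (88.2%) against 38.2% of all genes, and CACGTG for 3 of 17 (17.6%) against 8.09%. The share of windows was 1.24%, 37.4%, 35.7% and 7.15% of 32851 for the 4 motifs in this order. CCAAT was about as frequent among the genes that were lower in APP_WT (11 of 13) as among those that did not pass the test (11 of 14), and was present for 1 of the 4 that were higher, without a test of these differences. A match of letters is a description of the window and not a binding site. The 250 bases before the start site are shown 5′ to 3′ for Hmgcs1, which holds the element, and for Cyp51 and Idi1, the sterol enzymes with the lowest adjusted p that have a window (chosen after their values were seen), with TCACNCCAC and CCAAT on either strand (ATTGG on the other) in capitals.
Hmgcs1 (chr13:119690101-119690350, plus strand): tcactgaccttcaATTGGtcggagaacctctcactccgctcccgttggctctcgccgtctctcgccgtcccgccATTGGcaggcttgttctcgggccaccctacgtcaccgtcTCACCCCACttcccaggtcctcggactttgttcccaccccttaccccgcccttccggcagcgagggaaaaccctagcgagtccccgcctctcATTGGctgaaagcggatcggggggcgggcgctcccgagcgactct
Cyp51 (chr5:4104698-4104947, minus strand): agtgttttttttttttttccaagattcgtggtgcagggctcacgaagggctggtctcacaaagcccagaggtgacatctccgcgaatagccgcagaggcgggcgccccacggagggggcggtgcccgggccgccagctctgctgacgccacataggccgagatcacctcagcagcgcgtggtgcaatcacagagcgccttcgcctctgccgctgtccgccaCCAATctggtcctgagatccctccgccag
Idi1 (chr13:8885356-8885605, plus strand): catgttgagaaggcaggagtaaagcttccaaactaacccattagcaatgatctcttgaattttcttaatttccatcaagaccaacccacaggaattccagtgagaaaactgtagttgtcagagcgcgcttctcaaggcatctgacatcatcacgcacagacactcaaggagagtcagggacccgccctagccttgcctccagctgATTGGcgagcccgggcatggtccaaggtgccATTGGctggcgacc
The element TCACCCCAC of Hmgcs1 begins 137 bases before the start site. Its 250 bases hold 3 copies of the CCAAT letters, those of Idi1 hold 2 and those of Cyp51 hold 1.

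In APP_WT compared with WT, 15 of 20 enzymes of cholesterol synthesis were lower, and Abca1 and Abcg1, cholesterol exporters of the LXR group, were higher. Of the 39 genes 17 were lower and 5 higher at a limma adjusted p below 0.05, against 7.00% of all 29361 expressed probes that were lower and 11.6% that were higher. The lower genes were 15 of the 20 sterol enzymes, Elovl6 and Stard4. The higher genes were Srebf1 and Scap of SREBP regulation and Nr1h3, Abca1 and Abcg1 of the LXR group. All 20 sterol enzymes had a negative fitted value with their representative probe. Their median was −0.36 on the log2 scale and their range −0.61 to −0.01, whereas the median of all expressed probes was 0.00. The second probes of Ggps1 and Lbr had positive values (0.05 and 0.14). With other scalings the split over all probes turned, to 5146 lower and 2681 higher with the scanner software's processed signals and to 3727 and 2136 with median centering, against 2054 and 3392 here. For the 39 genes these gave 19 lower and 4 higher, and 22 lower and 4 higher. By sign alone, 18 of the 39 genes had a ratio below 0 on all 4 arrays (11.9% of probes did) and 7 had a ratio above 0 on all 4 (15.1% of probes). SAM with rank products, the tests of the methods, called 14 of the 39 genes lower (4.42% of probes) and 4 higher (7.65%).

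**Figure D1:**
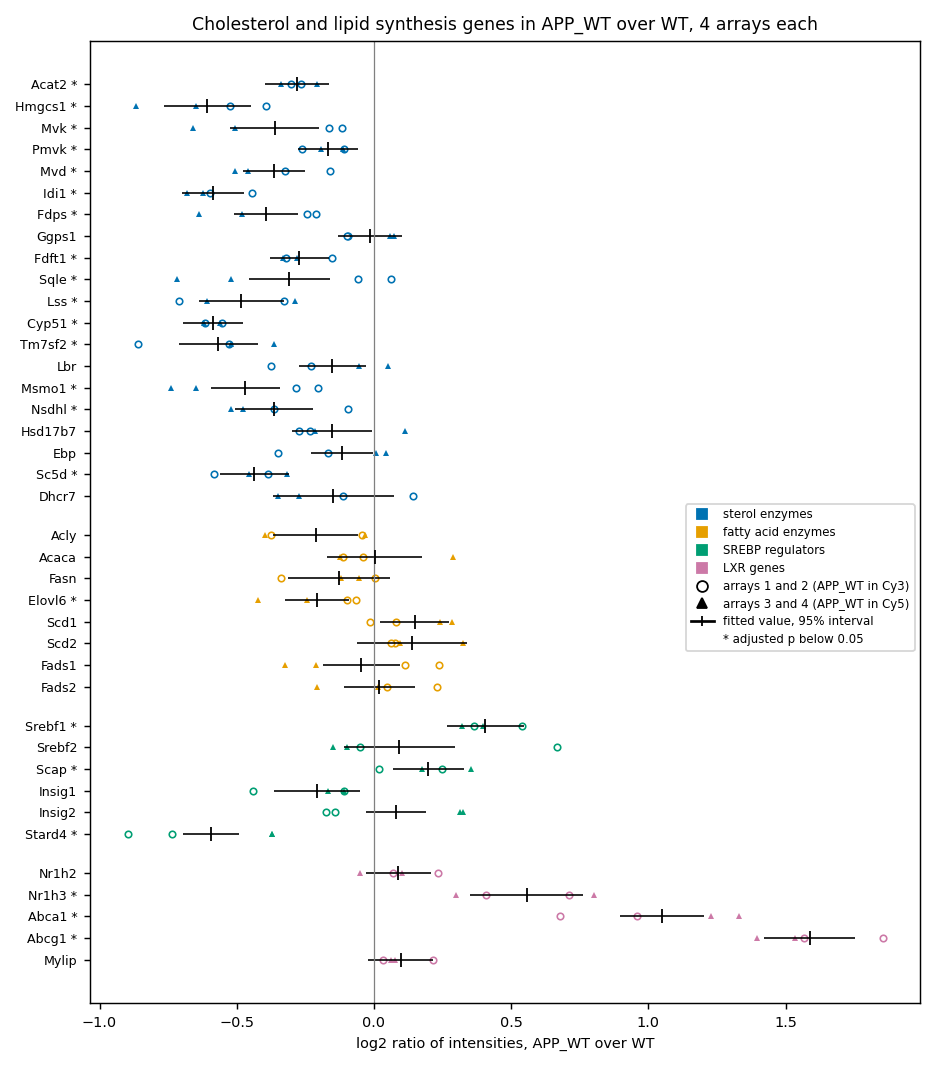
Log2 ratio of APP_WT over WT (x axis) for each of the 39 genes (y axis, grouped by role in color) on the 4 arrays, circles for arrays 1 and 2 and triangles for arrays 3 and 4, with the fitted value and its 95% interval in black. The fitted values of the 15 sterol enzymes marked with an asterisk (adjusted p below 0.05) lie left of 0, and Abca1 and Abcg1 lie farthest to the right.

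Among the enzymes before squalene, 7 of 8 were lower. Hmgcs1, the cytosolic HMG-CoA synthase, had log2 ratios of −0.39, −0.53, −0.65 and −0.87 on arrays 1 to 4, all below 0. Its fitted change was −0.61 ± 0.0717 (SE, n = 4), that is 65.6% of the WT level (adjusted p = 0.000200). Idi1, which isomerizes isopentenyl diphosphate, had ratios of −0.44, −0.60, −0.62 and −0.68 and a fitted change of −0.59 ± 0.0509 (adjusted p = 2.27e-05). The arrays of Idi1 lay close together, and its channel level was 12.25 ± 0.07 (SD, n = 4) log2 intensity units in WT and 11.66 ± 0.15 in APP_WT, without overlap. Mvd, mevalonate diphosphate decarboxylase, had ratios of −0.32, −0.16, −0.46 and −0.51 (−0.36 ± 0.0509, adjusted p = 0.000632). Fdps, farnesyl diphosphate synthase, had ratios of −0.24, −0.21, −0.48 and −0.64 (−0.39 ± 0.0528, adjusted p = 0.000481). Mvk, mevalonate kinase, was lower on arrays 3 and 4 (−0.66 and −0.51) than on arrays 1 and 2 (−0.12 and −0.17), with a fitted value of −0.36 ± 0.0735 (adjusted p = 0.00616), and its second probe was lower too (−0.21). Acat2, the thiolase that opens the pathway, had a fitted value of −0.28 ± 0.0527 (adjusted p = 0.00405). Pmvk, phosphomevalonate kinase, had the smallest change that passed (−0.17 ± 0.0493, adjusted p = 0.0369). Its second probe passed as well (−0.22, adjusted p = 0.0404) and was below 0 on all 4 arrays. The call of Pmvk was lost in 13 of 21 alternatives. Among them were the fits without array 2 (−0.13), 3 (−0.15) or 4 (−0.19) of APP_WT versus WT and the replicate block (adjusted p = 0.0708). Ggps1, whose product geranylgeranyl diphosphate leaves the sterol branch, was the exception with −0.01 ± 0.0523 (95% interval −0.13 to 0.10).

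From squalene onward 8 of 12 enzymes were lower. Cyp51, lanosterol 14-demethylase, had the most even ratios of the group (−0.62, −0.55, −0.62 and −0.56), and its fitted value was −0.59 ± 0.0497 (adjusted p = 1.93e-05). Tm7sf2, a sterol 14-reductase, had ratios of −0.53, −0.86, −0.36 and −0.52 (−0.57 ± 0.0650, adjusted p = 0.000166), and its second probe gave −0.46. The other reductase for this step, Lbr, which is also a receptor of the nuclear lamina, had −0.15 ± 0.0550 (adjusted p = 0.0822), and its second probe had the opposite sign (0.14). Lss, lanosterol synthase, was lower on all arrays (−0.71, −0.33, −0.29 and −0.61, fitted −0.48 ± 0.0696, adjusted p = 0.000751). Msmo1, the sterol C4 methyl oxidase also known as Sc4mol, had ratios of −0.28, −0.20, −0.65 and −0.74 (−0.47 ± 0.0571, adjusted p = 0.000247). Sc5d, lathosterol oxidase, had ratios of −0.58, −0.39, −0.32 and −0.46 (−0.44 ± 0.0567, adjusted p = 0.000382). Fdft1, squalene synthase, was lower at −0.27 ± 0.0492 (adjusted p = 0.00316). Nsdhl, a C4 decarboxylase, was lower at −0.36 ± 0.0636 (adjusted p = 0.00254), but its second probe did not pass (−0.15).

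Sqle, squalene epoxidase and a rate-limiting enzyme, differed between the dye orientations. Its ratios were −0.06 and 0.06 on arrays 1 and 2 and −0.52 and −0.72 on arrays 3 and 4. The fitted value of −0.31 ± 0.0670 passed (adjusted p = 0.00884), but did not without array 4 (−0.26, adjusted p = 0.0655) or in a fit without a dye coefficient (adjusted p = 0.270). Besides Lbr, 3 enzymes after squalene did not pass. Hsd17b7 had −0.15 ± 0.0655 (adjusted p = 0.140), Ebp −0.12 ± 0.0507 (0.142) and Dhcr7 −0.15 ± 0.100 (0.349). For Dhcr7, which makes cholesterol from its last precursor, array 2 was above 0 (0.14), and the 95% interval of −0.37 to 0.07 includes changes as large as those of several enzymes that passed.

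**Figure D2:**
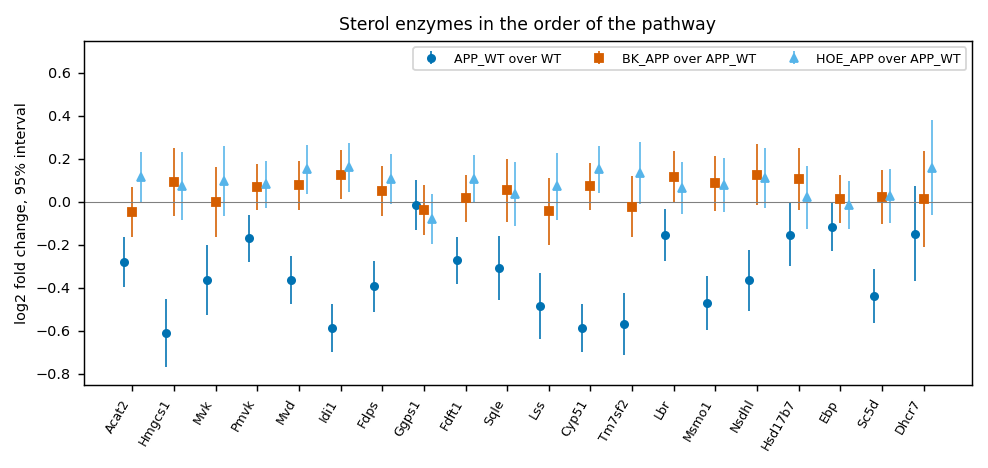
Fitted log2 fold change with its 95% interval (y axis) for the 20 sterol enzymes in the order of the pathway (x axis) in the 3 comparisons, APP_WT over WT in dark blue circles, BK_APP over APP_WT in orange squares and HOE_APP over APP_WT in light blue triangles. In APP_WT over WT the values run from −0.61 to −0.01, and in the treatments they lie between −0.08 and 0.16.

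Of the 8 fatty acid enzymes 1 was lower (12.5%, beside 7.00% of all probes) and none higher. Elovl6, which elongates palmitate to stearate, had ratios of −0.07, −0.10, −0.24 and −0.42 (fitted −0.21 ± 0.0533, adjusted p = 0.0205). This call was lost with the replicate block (adjusted p = 0.0529) and without array 2 (−0.20) or array 4 (−0.16). Acly, which makes cytosolic acetyl-CoA for both pathways, had −0.21 ± 0.0698 and missed the threshold (adjusted p = 0.0591), while its second, dimmer probe passed (−0.17, adjusted p = 0.0378). Fasn, fatty acid synthase, had −0.13 ± 0.0843 and Acaca, acetyl-CoA carboxylase, 0.00 ± 0.0781. The stearoyl-CoA desaturases had positive values that did not pass, Scd1 0.15 ± 0.0574 (adjusted p = 0.103) and Scd2 0.14 ± 0.0904 (adjusted p = 0.326). The desaturases of polyunsaturated fatty acids, Fads1 and Fads2, had −0.05 and 0.02. The median of the 8 was −0.02. The difference between the sterol and the fatty acid enzymes was not tested.

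Of the 6 genes of SREBP regulation, Srebf1 and Scap were higher and Stard4 was lower. These are 33.3% and 16.7%, beside the 11.6% of all probes that were higher and the 7.00% that were lower. Stard4, a sterol transfer protein and itself a known SREBP2 target, had ratios of −0.90, −0.74, −0.37 and −0.37, lower on every array. Its fitted value was −0.59 ± 0.0463, or 66.3% of the WT level (adjusted p = 1.04e-05). Srebf1, which encodes SREBP1 and is an LXR target, was higher on every array (0.36, 0.54, 0.40 and 0.32, fitted 0.41 ± 0.0636, adjusted p = 0.00132). Its channel level was 8.92 ± 0.17 in WT and 9.33 ± 0.18 in APP_WT (SD, n = 4), with ranges that overlap between arrays although the mutant channel was the brighter on each. Srebf2, which encodes the SREBP that chiefly drives sterol synthesis, had 0.09 ± 0.0910 (adjusted p = 0.531), since only array 2 was positive (0.67, the others −0.15 to −0.05). The second probe of Srebf2 had 0.05 on array 2 and a fitted value of 0.02. Scap was higher by 0.20 ± 0.0586 (adjusted p = 0.0391), a call that 15 of 21 alternatives did not keep, among them the replicate block (adjusted p = 0.0892), median centering (0.03) and the fits without array 2 (0.14), 3 (0.15) or 4 (0.24) of APP_WT versus WT or without single arrays of the treatments (adjusted p of up to 0.0587). Insig1, another SREBP target, was below 0 on all 4 arrays (−0.44, −0.11, −0.11 and −0.17) without passing (−0.21 ± 0.0709, adjusted p = 0.0697). Insig2 changed sign with the dye orientation, with −0.14 and −0.18 on arrays 1 and 2 and 0.31 and 0.32 on arrays 3 and 4.

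Of the LXR group, 3 of 5 genes were higher and none lower. Abcg1, a transporter that exports cholesterol to high-density lipoprotein, showed the largest change of the 39 genes. Its ratios were 1.57, 1.85, 1.54 and 1.39 and its fitted value 1.59 ± 0.0746, a 3.01-fold increase (adjusted p = 2.99e-07). Its channel level was 8.42 ± 0.11 in WT and 10.01 ± 0.14 in APP_WT, and the groups were far apart. Abca1, which loads cholesterol onto apolipoproteins, had ratios of 0.68, 0.96, 1.23 and 1.33 and rose 2.07-fold (1.05 ± 0.0686, adjusted p = 3.02e-06). Nr1h3, which encodes LXR alpha, was higher with both of its probes, at 0.56 ± 0.0934 (adjusted p = 0.00201) and 0.38. Nr1h2, which encodes LXR beta, had 0.09 ± 0.0532, and Mylip, an LXR-induced ubiquitin ligase for lipoprotein receptors, had 0.10 ± 0.0529 with all 4 ratios above 0. Neither passed (adjusted p = 0.288 and 0.239). Microglia and astrocytes express these exporters too, and the part of the microglial and astrocyte markers that rose with them was not tested.

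**Figure D3:**
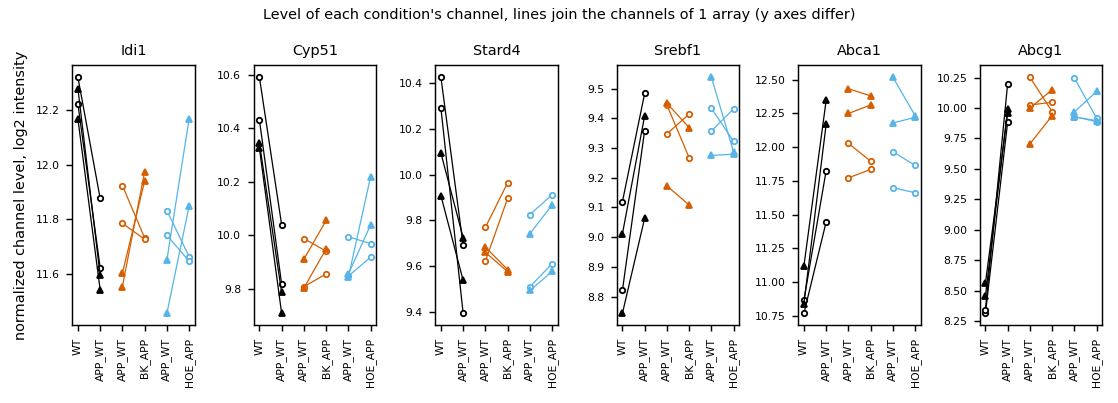
Normalized channel level in log2 intensity units (y axis, a separate scale per gene) of each condition (x axis) for Idi1, Cyp51, Stard4, Srebf1, Abca1 and Abcg1, where a line joins the 2 channels of 1 array, circles being arrays 1 and 2 and triangles arrays 3 and 4. The black lines of APP_WT versus WT all run in 1 direction per gene, while the orange (BK_APP) and blue (HOE_APP) lines run both ways, except that the 4 lines of Stard4 in HOE_APP all rise, by 0.08 to 0.13.

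Genes outside the 39 were taken from lists of the same pathways. Of 21 other expressed sterol genes 3 rose and 2 fell, of 25 other fatty acid genes 5 rose and 2 fell, and of 8 other LXR genes 3 rose and none fell. For the sterol genes these are 14.3% and 9.52%, and for the fatty acid genes 20% and 8%, beside the 11.6% of all probes that were higher and the 7.00% that were lower. Among the decreases were those of Acss2, the cytosolic acetyl-CoA synthetase (−0.35 ± 0.0509), Elovl2, an elongase of polyunsaturated fatty acids (−0.29 ± 0.0456), and Osbp, an oxysterol binding protein (−0.16 ± 0.0504). The largest increases were those of Ch25h, Pltp, Lpl and Nceh1. Ch25h, which makes 25-hydroxycholesterol, was not well above background on any WT array and was at least 2.20-fold higher in APP_WT (adjusted p = 1.63e-05). Pltp, the phospholipid transfer protein, rose by 0.88 ± 0.0727 and Lpl, lipoprotein lipase, by 0.80 ± 0.0560, both known LXR targets. Nceh1, a cholesteryl ester hydrolase, rose by 0.64 ± 0.0669. The adjusted p of these 7 genes was at most 0.0490.

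None of the 39 genes passed the adjusted test with bradykinin, and 0% of all expressed probes did (smallest adjusted p over all probes 0.967). At an unadjusted p below 0.05, 1 gene was higher and none lower, against 2.10% and 2.36% of all probes, and SAM with rank products called none of the 39 (1.16% of probes higher and 0.673% lower). That gene was Idi1, with ratios of −0.19 and −0.06 on arrays 1 and 2 and 0.42 and 0.34 on arrays 3 and 4 (fitted 0.13 ± 0.0509, unadjusted p = 0.0308). The sign of Idi1 thus followed the dye orientation, and under a block for array number none of the 39 genes had an unadjusted p below 0.05. That block fits 1 shared sign to all 3 comparisons, although arrays of APP_WT versus WT deviated oppositely, so it cannot test the pairing. Lbr and Nsdhl were above 0 on all 4 arrays, at 0.12 ± 0.0550 and 0.13 ± 0.0636, although the second probe of Nsdhl had the opposite sign (−0.05, with −0.35 and −0.27 on arrays 1 and 2), and no gene was below 0 on all 4, while 5.10% of all probes were above and 4.62% below. The median of the sterol enzymes was 0.05, of the fatty acid enzymes −0.03, of the SREBP group 0.02 and of the LXR genes 0.03, beside 0.00 for all probes. Abca1 (−0.02 ± 0.0686) and Abcg1 (0.03 ± 0.0746) stayed near 0, with 95% intervals of −0.17 to 0.14 and −0.13 to 0.20.

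With HOE-140 again none of the 39 genes passed the adjusted test (0% of all probes, smallest adjusted p 0.898) and none was called by SAM with rank products (0.790% of probes higher and 1.52% lower). At an unadjusted p below 0.05, 6 of the 39 genes were higher and none lower, against 2.31% and 2.72% of all probes. They were the sterol enzymes Idi1, Cyp51, Mvd and Fdft1, the regulator Insig1 and the desaturase Fads2. Idi1 had ratios of −0.17 and −0.10 on arrays 1 and 2 but 0.39 and 0.52 on arrays 3 and 4 (0.16 ± 0.0509, unadjusted p = 0.00947). Cyp51 had 0.07, −0.03, 0.18 and 0.38 (0.15 ± 0.0497, unadjusted p = 0.0116), and Mvd −0.03, −0.15, 0.31 and 0.47 (0.15 ± 0.0509, unadjusted p = 0.0133). For these enzymes the arrays with the treated sample in Cy3 carried the positive value. Insig1 had 0.22, −0.15, 0.20 and 0.37 (0.16 ± 0.0709, unadjusted p = 0.0464), and Fdft1 0.03, −0.04, 0.17 and 0.27 (0.11 ± 0.0492, unadjusted p = 0.0493). With the replicate number as a block, 3 of the 6 (Mvd, Idi1 and Cyp51) had an unadjusted p below 0.05. The block has the limit described for bradykinin.

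The ratios of 4 genes were above 0 on all 4 arrays of HOE_APP and of none below, against 5.68% and 5.00% of all probes. Stard4 had the most even ratios, 0.10, 0.09, 0.08 and 0.13 (fitted 0.10 ± 0.0463, unadjusted p = 0.0561). Acat2 had 0.10, 0.07, 0.10 and 0.19, Tm7sf2 0.04, 0.21, 0.14 and 0.14, and Fads2 0.26, 0.08, 0.10 and 0.10. The second probe of Tm7sf2 was below 0 on array 1 (−0.04), with a fitted value of 0.08. Fads2, a desaturase of polyunsaturated fatty acids, had a fitted value of 0.13 ± 0.0590 (unadjusted p = 0.0443). Stard4, Acat2 and Tm7sf2 were lower in APP_WT than in WT, but the comparisons share the APP_WT condition, so that opposite values in them are not independent. The sterol enzymes had a median of 0.09 (all probes 0.00) and 18 of 20 positive fitted values. However, 13 of the 20 changed sign between the dye orientations (65%, against 62.4% of all probes). The LXR genes had a median of −0.06. Were HOE_APP to run the other way, the sterol and LXR medians would be −0.09 and 0.06. The microglial markers had a median of −0.08 in HOE_APP and 0.15 in BK_APP, and their part in these values was not tested.

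**Figure D4:**
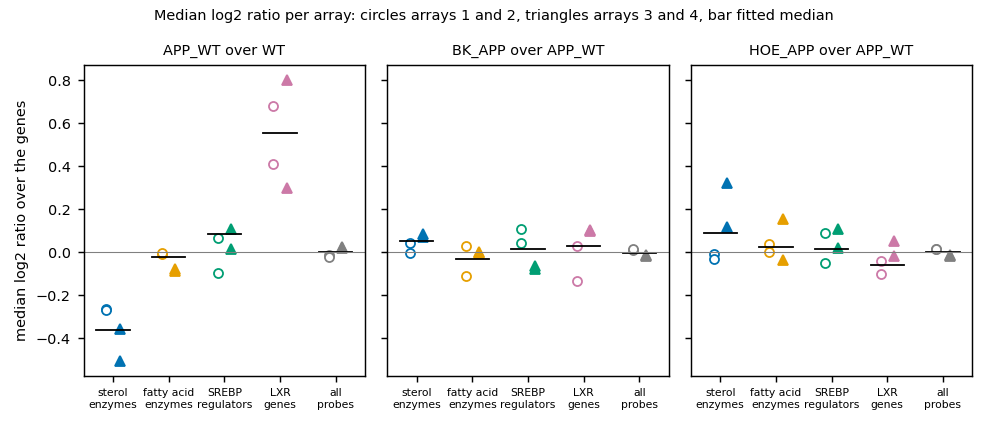
Median log2 ratio over the genes of each role (y axis) on every array of the 3 comparisons (panels), circles for arrays 1 and 2, triangles for arrays 3 and 4, and a bar for the median of the fitted values, with all expressed probes in grey. Sterol enzymes lie below 0 and LXR genes above 0 on the 4 arrays of APP_WT over WT, and in HOE_APP over APP_WT the sterol medians of arrays 3 and 4 (0.12 and 0.32) lie above those of arrays 1 and 2 (−0.01 and −0.03).

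The treatments were compared directly as BK_APP minus HOE_APP, at the same dose and times. No gene of the 39 differed, at an adjusted p (0% of probes, smallest adjusted p 1.00) or an unadjusted p below 0.05 (1.20% of probes higher and 1.29% lower). The differences ran from −0.22 (Fasn, 95% interval −0.48 to 0.04) to 0.13 (Nr1h3, −0.16 to 0.42), and 38 of 39 were smaller than 0.2 in size. These intervals include differences as large as several of the changes seen between APP_WT and WT, so the absence of a call does not show that the peptides acted alike. Acat2 had the smallest unadjusted p (0.0540), with −0.16 ± 0.0745. The fit treated the arrays of BK_APP and HOE_APP as independent. Same-numbered arrays of the treatments deviated together within each dye orientation, however (r of 0.421 and 0.432). With this pairing left out, the standard errors and intervals of the differences can be too wide, and a fit with the pairing was not made. The differences also rest on the likely direction of HOE_APP. If HOE_APP ran the other way, none of the 39 genes would pass the adjusted test either (smallest adjusted p among them 0.603, and 0.164 over all probes), but 6 would be higher in BK_APP at an unadjusted p below 0.05 and none lower, against 3.61% and 4.32% of all probes. The differences would then run from −0.14 to 0.29, and 4 would be 0.2 or more in size, those of Idi1 (0.29 ± 0.0720), Nsdhl (0.24 ± 0.0899), Mvd (0.23 ± 0.0719) and Cyp51 (0.22 ± 0.0703). The others of the 6 are Stard4 (0.17 ± 0.0655) and Lbr (0.18 ± 0.0778). In that direction the standard errors without the pairing can instead be too small.

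The dye orientations were set side by side for the 39 genes. Arrays 1 and 2 hold other replicates than arrays 3 and 4, and the orientation was fixed within each pair of arrays. A dye effect and a difference between these replicates therefore cannot be told apart. In APP_WT over WT, 9 of 39 genes had means of opposite sign on arrays 1 and 2 and on arrays 3 and 4 (23.1%, against 45.4% of all expressed probes), and no LXR gene was among them. The sterol median was −0.25 on arrays 1 and 2 and −0.44 on arrays 3 and 4. In BK_APP over APP_WT 28 of 39 genes changed sign with the orientation (71.8%, against 61.5% of all probes), and in HOE_APP over APP_WT 23 of 39 did (59.0%, against 62.4%). In HOE_APP 11 of 20 sterol enzymes were negative on arrays 1 and 2 and positive on arrays 3 and 4, and their medians were −0.01 and 0.20. The dye coefficient, which is positive where the ratio is higher with the numerator in Cy5, was −0.07 for Idi1 in APP_WT over WT, −0.25 in BK_APP and −0.29 in HOE_APP. The 4 arrays of APP_WT versus WT lay on 1 slide and the 8 arrays of the treatments on another, so that slide and comparison cannot be told apart, while each ratio comes from within 1 array.

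**Figure D5:**
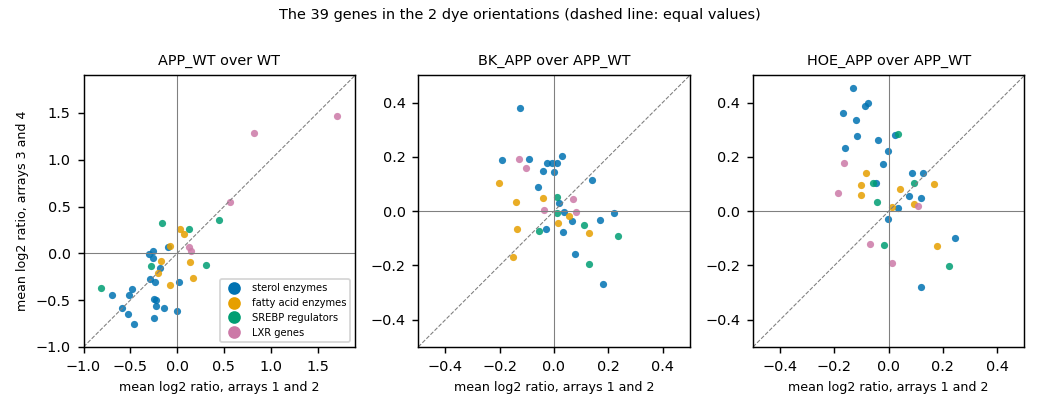
Mean log2 ratio of each of the 39 genes on arrays 1 and 2 (x axis) against that on arrays 3 and 4 (y axis) in the 3 comparisons (panels, the first with a wider scale), colored by role, with a dashed line at equal values. In APP_WT over WT 30 genes share a sign between the orientations, and in BK_APP 11 and in HOE_APP 16 do.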

How the data were processed

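The authors deposited the scanner output of 12 2-color arrays, per the file headers made with Agilent Feature Extraction 11.0.1.1 (not the version of the methods), with the median intensity and background of each spot in both channels, flags for spot quality, processed intensities and their log10 ratio. They also deposited a table of log2 ratios, whose columns matched those log10 ratios (r of at least 0.998 in size, medians −0.155 to 0.036) and had the direction used here. Its normalization is not given in the sources used here.

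Median intensities were corrected by normexp (offset 50) and normalized by loess (span 0.3, weight 0 for control and uneven spots) in limma 3.58.1 (R 4.3.3). Spots of a probe were averaged, and a probe was well above background where at least 0.5 of its spots were. One limma model with a mean and a dye coefficient per comparison was fitted to the 29361 expressed probes (6 residual and 4.56 prior degrees of freedom), with two-sided tests and Benjamini-Hochberg adjustment over all probes at 0.05. Each adjusted p in the text is from this model, n is 4 arrays, and the number of arrays limits the precision. Channel levels are after loess and Aquantile scaling. SAM (sign flips) and rank products (100 permutations) required p of 0.05 or lower in each. Of 29150 probes with a RefSeq accession 27509 were named through RefSeq (GRCm38.p6). The model was tested on simulated data. Array numbers pair BK_APP and HOE_APP, whose same-numbered arrays deviated together within each dye orientation (r of 0.421 and 0.432). Those of APP_WT versus WT deviated oppositely to either treatment (r of −0.507 to −0.205). The members and lists were chosen with earlier results of these data known. Single values are given for genes past the adjusted threshold and, in the treatments, for those with an unadjusted p below 0.05, a call by SAM and rank products or 1 sign on all 4 arrays, and for other pathway genes the 4 largest changes in each direction, of which 1 is not reported here. Genes given beyond this rule were chosen after their values were seen. Alternatives were other normalizations, filters, probes and models, and leaving out each array.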

Additional observations from a re-analysis of the deposited data

Results flagged for a closer look

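Of 129 groups of 4 arrays (39 genes and 4 role medians in 3 comparisons), 7 held 1 array far from the other 3 by Dixon's test, and chance flags about 1 in 20. Array 3 stood apart for Scd2, a stearoyl-CoA desaturase, in all 3 comparisons, with log2 ratios of 0.32 in APP_WT over WT (others 0.06 to 0.10), −0.27 in BK_APP over APP_WT (others 0.09 to 0.16) and −0.42 in HOE_APP over APP_WT (others 0.14 to 0.21). The APP_WT channel was highest on array 3 in each (15.94, 16.04 and 16.09), and the other channel lowest. The comparisons share the APP_WT condition, so these 3 flags need not be independent. Srebf2 was 0.67 on array 2 of APP_WT over WT, where the others lay between −0.15 and −0.05, and Hsd17b7 was 0.11 on array 4 (others −0.27 to −0.21). The second probes of Srebf2 and Hsd17b7 had 0.05 and −0.18 on these arrays. Scd1 was −0.14 on array 2 of BK_APP over APP_WT (others 0.04 to 0.06) and Fads2 was 0.26 on array 1 of HOE_APP over APP_WT (others 0.08 to 0.10). None of these genes passed the adjusted test in the comparison concerned.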

How the results depend on the processing

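Of the 22 genes called in APP_WT versus WT, 14 (Hmgcs1, Mvd, Idi1, Fdps, Lss, Cyp51, Tm7sf2, Msmo1, Sc5d, Srebf1, Stard4, Nr1h3, Abca1 and Abcg1) kept their call in all 21 alternatives that gave a limma adjusted p. The others lost it in 1 (Acat2, Mvk and Fdft1), 2 (Sqle and Nsdhl), 4 (Elovl6), 13 (Pmvk) or 15 (Scap) of them, and no sign reversed. With each comparison fitted alone and without a dye coefficient, 10 genes were lower, 9 of them sterol enzymes. Of all 29361 probes, 282 were lower and 1552 higher in that fit, against 2054 and 3392 in the main fit. With the replicate number as a block across the comparisons 15 genes were lower, 14 of them sterol enzymes, and 4 were higher. Of all probes, 1371 were lower and 2799 higher in this fit. Pmvk, Elovl6 and Scap were lost, and no call in the treatments changed. The block fits 1 deviation of the same sign to same-numbered arrays of all 3 comparisons. Those of APP_WT versus WT deviated oppositely, so the block cannot show whether these calls depend on the pairing. Leaving out single arrays gave 14 to 17 lower and 4 to 6 higher genes, beside 1081 to 1946 lower and 2494 to 3806 higher probes. No alternative with an adjusted p called any of the 39 genes in BK_APP, HOE_APP or their difference. Median centering in place of loess gave medians of −0.48 for the sterol enzymes in APP_WT and 0.14 in BK_APP, of −0.18, 0.0361 and 0.16 for the fatty acid enzymes in APP_WT, BK_APP and HOE_APP, of −0.0269 and 0.13 for the SREBP group in APP_WT and HOE_APP, and of 0.0508 for the LXR genes in HOE_APP. The fatty acid median in APP_WT was −0.0886 with the processed signals and −0.0885 with the deposited table, and ran from −0.0874 (without array 3 of APP_WT versus WT) to 0.00329 when single arrays were left out. The LXR median in HOE_APP ran from −0.0592 to 0.0135 (without array 2 of HOE_APP) in that case. If HOE_APP ran the other way, the medians were −0.0895 for the sterol enzymes and 0.0592 for the LXR genes. The cause of these shifts was not tested. All 39 genes were well above background, so that the number of arrays and the difference between the dye orientations limit the values. The standard errors lay between 0.0463 and 0.100.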

Other observations

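The lists of cell type markers gave these values in APP_WT versus WT, beside those of microglia and astrocytes and the 11.6% of all probes that were higher and 7.00% that were lower. Of 10 neuron markers 3 were higher and 3 lower, with a median log2 fold change of 0.02, and of 15 markers of the oligodendrocyte lineage, which makes much of the brain's cholesterol for myelin, 1 was higher and 1 lower (median 0.05). Of 8 markers of progenitors and proliferation 1 was higher and 2 lower (median 0.00), and of 5 markers of pericytes and fibroblasts 3 were lower (median −0.25). None of the 3 expressed endothelial markers of 5 passed. The microglial and astrocyte lists had medians of 1.39 and 0.30. No marker passed the adjusted test in BK_APP or HOE_APP.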
